A study of Mus musculus with 4 samples.

Results

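The 52 genes described here are imprinted genes of the mouse, taken as a fixed list of symbols: genes that are known to be transcribed mainly from the allele of a single parent. They were followed in RNA-seq libraries of FACS-sorted tdTomato+ cells from embryonic mouse kidneys, and all 52 symbols matched exactly 1 of the 52636 gene rows. Of the 52 genes, 27 are known for paternal expression, 24 for maternal expression, and Gnas for either, depending on the transcript. For 36 of them the imprint is known in most embryonic tissues (called broad below), and for the other 16 mainly in placenta, brain or another limited set of tissues (called limited).

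Control and Eya1cKO cells were compared, with 2 libraries each. Control cells carried Eya1CreER and the tdTomato reporter. Eya1cKO cells carried Eya1CreER, the reporter and floxed Eya1 alleles (Eya1 fl/fl). Tamoxifen was given to the dams of both genotypes, so that both carried the same CreER allele and received the same drug, and kidneys were collected at E12.5 to E12.75, 48 hours after tamoxifen was first given. The Cre is driven from the Eya1 locus itself, which is active in nephron progenitors, and tdTomato also stays on in the descendants of labelled cells. The animals were of a mixed C57BL/6J and 129/Sv background. Each library came from 5000 sorted cells. Per the labels, 4 pregnant females gave 6 kidneys for every genotype. The study's methods differ in these numbers and describe one combined suspension of cells before the sort. The study's supplement calls the libraries of a genotype biological replicates, each made from a different set of 5000 cells sorted at the same time. The libraries of a genotype may therefore be portions of a single pool. The p-values below then measure only the spread between such portions, and not that between animals. The counts hold no allele information: every value is the sum of both parental alleles, and nothing below measures imprinting itself.

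Genomic imprinting marks the maternal and paternal copies of a locus differently in the germ line, usually by DNA methylation at an imprinting control region, and the mark is kept through the divisions of the embryo. Most imprinted genes lie in clusters in which coding genes and long non-coding RNAs are read from opposite parental copies. Many of them act on growth: Igf2, Peg3, Plagl1, Cdkn1c, Grb10 and Igf2r are all known for effects on the size of the embryo or its organs, and the IGF2 growth factor is abundant in embryonic kidney.

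Reads counted on genes numbered 35411905 and 37999342 in the control libraries and 22239293 and 17457452 in the Eya1cKO libraries. Reads outside annotated genes made up 13.9% and 12.9% of those recorded in controls and 22.7% and 20.9% in Eya1cKO. Reads that did not align were 6.32% and 6.69% in controls and 12.9% and 12.7% in Eya1cKO. The part of these differences in the results was not tested. The targeted gene, Eya1, had 6612 and 6420 reads in the controls and 377 and 219 in Eya1cKO, a log2 fold change of -3.60. Markers of several cell types differed as well. The summed level of 8 nephron progenitor markers was 1730 and 1720 CPM in controls and 365 and 341 CPM in Eya1cKO, where CPM is the read count scaled to the size of its library after TMM normalisation. Those of podocytes were at 886 and 906 against 2800 and 2860 CPM, and those of stroma at 2420 and 2400 against 5180 and 5580 CPM. Most of the stromal sum was Col1a1, at 1070 and 1060 against 2230 and 2490 CPM, and Col1a2, at 605 and 601 against 1890 and 2020 CPM. The adrenal cortex list stood at 36.6 and 27.5 against 737 and 706 CPM, the sympathoadrenal list at 34.5 and 40.8 against 558 and 581 CPM, and the endothelial list at 573 and 581 against 985 and 1070 CPM. All 8 nephron progenitor markers passed the test as lower. This list and its sum include Eya1 itself, the targeted gene, whose fall was set by the design. Passed as higher were 7 of 8 podocyte, 8 of 8 adrenal cortex, 7 of 8 sympathoadrenal, 7 of 8 endothelial and 5 of 8 stromal markers. Of the stromal list 1 more (Tbx18) passed as lower, as did 2 of 8 ureteric bud markers, whose sum was 194 and 200 against 114 and 105 CPM. Of 8 skeletal muscle markers 4 were tested, and Des alone passed, as lower, at 115 and 125 against 74.1 and 53.9 CPM. The muscle list stood at 131 and 145 against 96.9 and 65.7 CPM. Myf5 was at 0 in every library. Myod1 had 5 and 0 reads against 0 and 0, Myog 0 and 2 against 65 and 0, and Myf6 0 and 0 against 0 and 30. Of 8 blood and immune markers 4 were tested and none passed, with Hba-a1 at 0 in every library and the list at 82.4, 86.7, 68.9 and 91.7 CPM. These markers moved between the genotypes together with the imprinted genes described below, and their part in those results was not tested. In such sorted bulk samples, fewer cells of a type and less RNA per cell cannot be told apart.

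The sequences that follow belong to genes the results turn on. Peg3 and Usp29, which both fell, are read in opposite directions from starts that lie 164 bases apart in the RefSeq models. The window from 250 bases before the start of Usp29 to 50 bases after it (chr7:6730333-6730632, GRCm38.p6, plus strand) is shown with the bases from the start of Peg3 to that of Usp29 in capitals. It holds 5 CG dinucleotides between the starts.
Peg3-Usp29: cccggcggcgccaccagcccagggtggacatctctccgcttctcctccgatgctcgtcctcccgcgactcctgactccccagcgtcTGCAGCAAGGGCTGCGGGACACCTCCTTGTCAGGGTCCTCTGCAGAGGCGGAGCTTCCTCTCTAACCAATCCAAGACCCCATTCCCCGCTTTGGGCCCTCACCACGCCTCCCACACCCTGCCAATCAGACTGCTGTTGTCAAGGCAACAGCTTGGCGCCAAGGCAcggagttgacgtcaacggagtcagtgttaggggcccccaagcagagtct

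Promoter windows of this length were listed for 42 of the 52 genes. They were searched on both strands for TGCCGC, the hexamer bound by the imprint-protecting zinc finger protein ZFP57 when methylated. Of 63 windows of imprinted genes, 15 held it (23.8%), against 11.6% of all 32851 windows. The windows of imprinted genes were richer in CG, with a median of 14 CG dinucleotides against 7, and of all windows with at least 14 the share was 24.7%. GCCATNTT, the core of the YY1 site, was in 3 of the 63 windows, against 6.05% of all. Counted by gene, 14 of the 42 with a window held TGCCGC in at least 1. Among the genes that passed the test, 11 had a window and 5 of these held it, namely Igf2 and 4 whose windows are shown, Nap1l5 and Plagl1, which rose, and Grb10 and Mest, which fell, with each match in capitals. A match is a string of letters and no evidence of binding. The windows are chr6:58907077-58907376 (minus strand), chr10:13090582-13090881 (plus), chr11:12037371-12037670 (minus) and chr6:30737800-30738099 (plus), in that order.
Nap1l5: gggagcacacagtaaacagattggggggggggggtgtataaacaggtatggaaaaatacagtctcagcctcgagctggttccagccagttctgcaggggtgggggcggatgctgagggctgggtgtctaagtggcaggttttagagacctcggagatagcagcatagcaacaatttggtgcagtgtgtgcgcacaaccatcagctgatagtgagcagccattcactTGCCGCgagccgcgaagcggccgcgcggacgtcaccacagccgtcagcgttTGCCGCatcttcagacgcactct
Plagl1: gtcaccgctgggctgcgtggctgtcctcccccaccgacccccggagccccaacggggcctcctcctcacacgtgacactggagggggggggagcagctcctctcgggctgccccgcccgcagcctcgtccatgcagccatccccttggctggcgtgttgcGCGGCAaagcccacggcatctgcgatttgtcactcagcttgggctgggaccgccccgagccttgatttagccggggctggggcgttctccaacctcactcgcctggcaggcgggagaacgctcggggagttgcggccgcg
Grb10: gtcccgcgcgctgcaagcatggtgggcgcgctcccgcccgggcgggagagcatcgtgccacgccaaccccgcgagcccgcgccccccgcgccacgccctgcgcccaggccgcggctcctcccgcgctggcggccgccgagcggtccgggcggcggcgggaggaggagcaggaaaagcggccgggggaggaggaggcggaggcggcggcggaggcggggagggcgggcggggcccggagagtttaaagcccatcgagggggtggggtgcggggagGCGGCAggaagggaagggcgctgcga
Mest: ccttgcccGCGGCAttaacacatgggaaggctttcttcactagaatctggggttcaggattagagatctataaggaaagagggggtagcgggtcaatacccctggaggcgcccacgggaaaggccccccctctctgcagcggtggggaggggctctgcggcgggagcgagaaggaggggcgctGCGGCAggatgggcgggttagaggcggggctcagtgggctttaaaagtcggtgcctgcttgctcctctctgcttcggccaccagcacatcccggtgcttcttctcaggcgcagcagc

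Several of the genes host miRNAs on their own strand. RefSeq places miR-675 inside H19 and miR-483 inside Igf2, hosts that rose, and miR-335 inside Mest, a host that fell. Mirg, which rose, holds 26 mature miRNAs with 25 different seeds, the only repeated seed being that of miR-453 and miR-496a-5p. They are shown because a host's reads are all that was counted here: the mature miRNAs were not measured. The seed, bases 2 to 8, is in capitals.
miR-675-5p: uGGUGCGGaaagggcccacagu
miR-675-3p: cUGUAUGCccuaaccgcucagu
miR-483-5p: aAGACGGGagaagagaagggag
miR-483-3p: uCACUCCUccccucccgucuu
miR-335-5p: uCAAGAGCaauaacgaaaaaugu
miR-335-3p: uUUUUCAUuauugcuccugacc
miR-453: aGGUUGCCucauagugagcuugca
miR-496a-5p: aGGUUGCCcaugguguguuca

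Of the 52 imprinted genes, 47 had enough reads to be tested. The other 5 were Ascl2, Dlk1, Rian, Rtl1 and Slc22a2. Between control and Eya1cKO, 15 of the 47 passed an adjusted p of 0.05 in edgeR's quasi-likelihood test, which is 31.9%, against 9.56% of all 19041 genes tested. There were 11 higher in Eya1cKO (23.4%, against 5.15% of all genes) and 4 lower (8.51%, against 4.41%). Those that rose were Cdkn1c, Peg10, Plagl1, H19, Igf2, Peg13, Cobl, Nap1l5, Igf2r, Gnas and Mirg, and those that fell were Grb10, Usp29, Mest and Peg3. Both libraries of a genotype lay above both of the other in 22 of the 47 for Eya1cKO (46.8%, against 25.3% of all genes) and in 13 for control (27.7%, against 30.0%). The median log2 fold change of the 47 was 0.26, and that of all genes tested 0.02. These shares describe genes that passed a filter on low counts, and they are no test of the group. They were not matched for abundance, whose part in the difference was not tested. With at least 10 reads in every library, 17 imprinted genes and 15.5% of all genes were called. The number of calls depended on which libraries were used. Without Control 1, and equally without Control 2, Cdkn1c was the 1 imprinted gene that still passed, with 0.109% and 0.108% of all genes called. Without Eya1cKO 1 and without Eya1cKO 2, 27 imprinted genes passed, with 33.5% and 35.3% of all genes called. The 12 added without Eya1cKO 1 were Asb4, Copg2, Impact, Klf14, Magel2, Ndn, Nnat, Osbpl5, Peg12, Sgce, Trappc9 and Tssc4, and the 12 added without Eya1cKO 2 were Blcap, Dio3, Magel2, Mcts2, Meg3, Mkrn3, Nespas, Nnat, Osbpl5, Sgce, Slc22a3 and Slc38a4. The fitted changes of all 15 kept their sign with any 1 library left out, with narrow ranges such as 1.16 to 1.22 for Peg10 and wider ones such as 3.34 to 4.02 for Nap1l5, 1.52 to 2.16 for Mirg, 0.85 to 1.26 for Peg13 and -0.49 to -0.27 for Peg3.

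**Figure D1:**
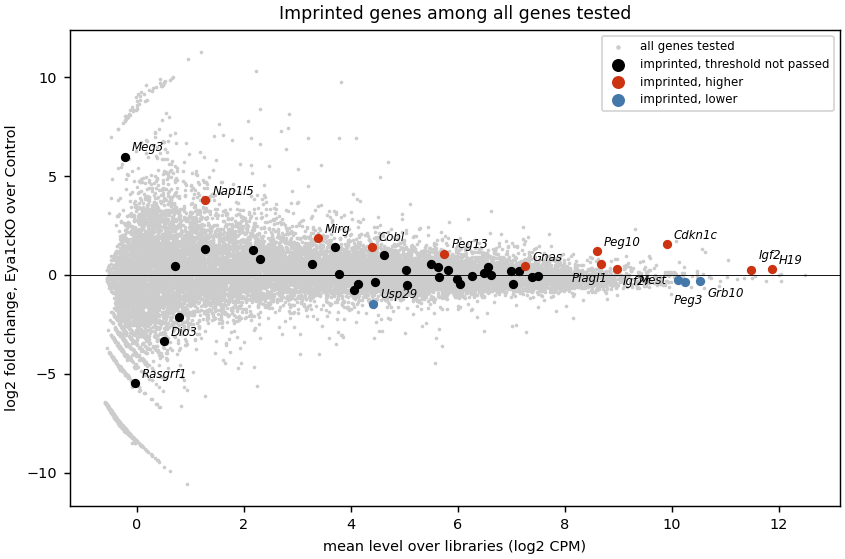
Log2 fold change of Eya1cKO over control (y axis) against the mean level over the 4 libraries in log2 CPM (x axis) for the 19041 genes tested (grey), with the imprinted genes in red (11 higher), blue (4 lower) or black. H19 and Igf2 are the imprinted genes farthest to the right, and Cdkn1c and Peg10 stand above the other abundant imprinted genes.

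By parental class, of 25 paternally expressed genes tested, 5 rose (against 5.15% of all genes) and 3 fell (against 4.41%), with a median log2 fold change of 0.04. Of 21 maternally expressed genes tested, 5 rose and 1 (Grb10) fell, with a median of 0.29. Among genes of the broad class 9 of 33 rose and 4 fell, and of the limited class 2 of 14 rose (Cobl and Gnas) and 0 fell in edgeR's test, where 1 (Rasgrf1) was lower at an unadjusted p under 0.05, and 0 fell with DESeq2. The share of all genes lower at that unadjusted cut was not counted, so the 1 gene cannot be weighed against it. With 1 library left out, fitted log2 fold changes in the limited class ranged from -1.35 to -0.06 for Tssc4 and -0.95 to -0.19 for Copg2. For Trappc9 they ranged from -0.47 to 0.13, for Blcap from -0.13 to 0.50. Those of Osbpl5 ranged from 0.44 to 0.65 and those of Slc22a3 from 0.37 to 1.70. Differences between these classes were not tested.

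As a group the imprinted genes took a small part of each library. They held 1.36% and 1.34% of gene reads in the controls and 1.60% and 1.63% in Eya1cKO. H19 and Igf2 alone gave 44.0% and 43.5% of these reads in controls and 45.1% and 46.1% in Eya1cKO. Per kilobase of exon, H19 ranked 9 and Igf2 29 among 19015 genes in the controls, Mest ranked 53 and Cdkn1c 62. In Eya1cKO the ranks were 7 for H19, 22 for Igf2, 70 for Mest and 16 for Cdkn1c.

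**Figure D2:**
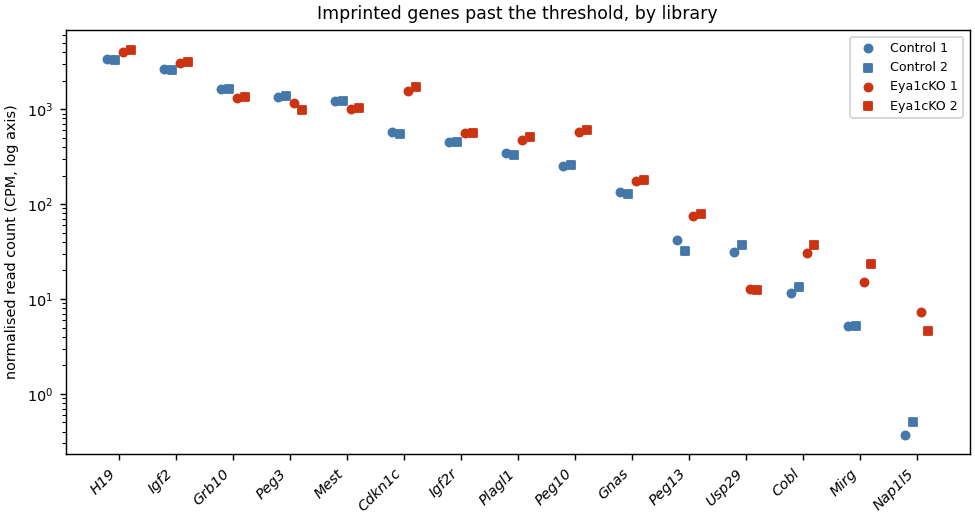
Normalised read count in CPM (log axis) of the 15 imprinted genes past the threshold in each of the 4 libraries, ordered by their level in controls. Blue points are the control and red points the Eya1cKO libraries; the pairs of points do not overlap for any of the 15, and the distance is largest for Nap1l5, at 0.372 and 0.506 CPM in controls and 7.29 and 4.55 CPM in Eya1cKO.

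Igf2 and H19 share a control region and enhancers on chromosome 7 and are read from opposite parental copies. Igf2 (chr7:142650766-142666816), the paternally expressed growth factor, was at 2670 and 2570 CPM in the controls and 3100 and 3170 CPM in Eya1cKO. Its level was 1.20-fold higher in Eya1cKO, a log2 fold change of 0.26 ± 0.04 (SE, from 2 libraries a genotype; edgeR adjusted p = 0.016). H19 (chr7:142575529-142578143), the maternally expressed long non-coding RNA, was at 3400 and 3340 CPM in controls and 4000 and 4270 CPM in Eya1cKO, a log2 fold change of 0.29 ± 0.05 (edgeR adjusted p = 0.012). The ranges of the genotypes did not overlap for either gene, although both changes were small. Reads on H19 per read on Igf2 were 1.28 and 1.30 in controls and 1.29 and 1.35 in Eya1cKO. Whether the rise of the 2 genes differed was not tested.

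Igf2r, the maternally expressed receptor that takes IGF2 to the lysosome, was at 455 and 451 CPM in controls and 562 and 556 CPM in Eya1cKO. It rose by a log2 fold change of 0.30 ± 0.06 (edgeR adjusted p = 0.030), a call that was lost without the low-count filter. Igf2 reads per Igf2r read were 5.87 and 5.71 in controls and 5.52 and 5.70 in Eya1cKO, a difference in the ratio of ligand to clearance receptor transcripts that was not tested. Airn, the paternal non-coding RNA that overlaps Igf2r and silences it in cis, had 22.6 and 17.9 CPM in controls and 16.9 and 12.3 CPM in Eya1cKO, with a log2 fold change of -0.44 ± 0.32 (edgeR adjusted p = 0.40). Slc22a3, an organic cation transporter of the same cluster, had 93 and 106 reads in controls and 205 and 63 in Eya1cKO and did not pass. Slc22a2, its neighbour, had 1 read in all 4 libraries together.

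Among the imprinted genes above 100 CPM in controls, the largest change was at the Kcnq1ot1 cluster. Cdkn1c (chr7:143458339-143461050), the maternally expressed cyclin-dependent kinase inhibitor p57, was at 570 and 551 CPM in controls and 1560 and 1700 CPM in Eya1cKO. It was 2.91-fold higher, a log2 fold change of 1.54 ± 0.06 (edgeR adjusted p = 8.5e-05). This was the smallest adjusted p among the imprinted genes. An antisense model, Gm44732, covers 30.7% of the exonic bases of Cdkn1c, and the strand setting of the counting is not given in the sources used here. Kcnq1ot1, the paternal antisense RNA that silences the cluster, was at 180 and 188 CPM in controls and 183 and 171 CPM in Eya1cKO, with a log2 fold change of -0.05 and an interval from -0.27 to 0.17. Cdkn1c reads per Kcnq1ot1 read were 3.17 and 2.93 in controls and 8.55 and 9.93 in Eya1cKO.

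The other genes of that cluster did not pass with all 4 libraries. Without Eya1cKO 1 and without Eya1cKO 2, the fitted log2 fold changes were 0.44 and 0.65 for Osbpl5. For Tssc4 they were -1.35 and -0.06. Osbpl5, an oxysterol-binding protein gene, was at 37.1 and 36.5 CPM in controls and 58.4 and 50.2 CPM in Eya1cKO (log2 fold change 0.57 ± 0.17, edgeR adjusted p = 0.089). Tssc4 had 42.6 and 40.4 CPM in controls and 40.1 and 16.4 CPM in Eya1cKO, so that 1 Eya1cKO library lay near the controls and the other well below. Phlda2, a growth-restraining gene of placenta, had 69 and 31 reads in controls and 76 and 1 in Eya1cKO. Ascl2, a bHLH factor of the trophoblast, had 17 and 8 reads in controls and 0 in both Eya1cKO libraries. Scaled for depth it was at least 2.3-fold lower in Eya1cKO when 3 reads per library are taken as the floor, a bound for counting error only.

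**Figure D3:**
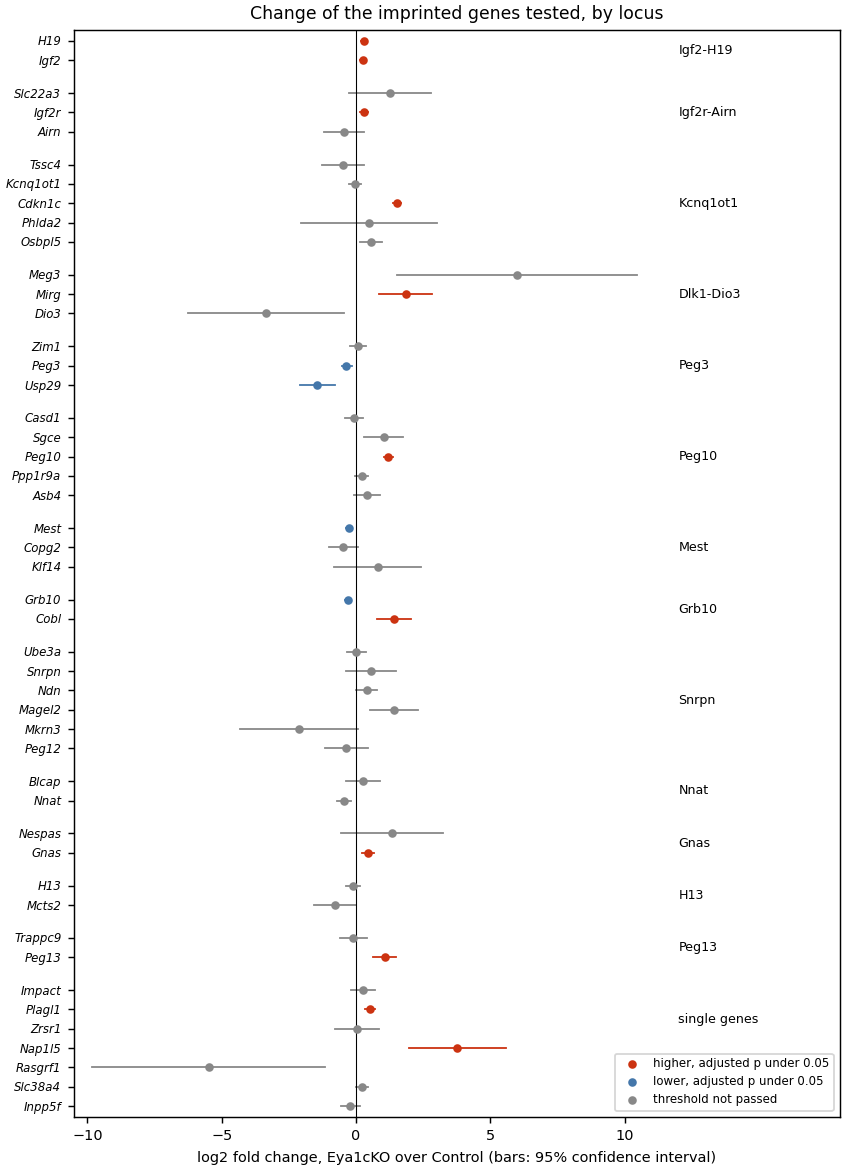
Log2 fold change of Eya1cKO over control with its 95% confidence interval for the 47 imprinted genes tested, grouped by locus, with red for higher, blue for lower and grey for genes that did not pass. Cdkn1c and Kcnq1ot1 lie in the same cluster with 1.54 and -0.05, and the intervals of Meg3 and Rasgrf1, which rest on 1 read in a genotype, are the widest.

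The Peg3 cluster held 3 of the imprinted genes, of which 2 fell (against 4.41% of all genes). Peg3, a paternally expressed zinc finger gene, was at 1360 and 1390 CPM in controls and 1160 and 990 CPM in Eya1cKO (log2 fold change -0.36 ± 0.08, edgeR adjusted p = 0.034). The call was lost with library totals in place of TMM, without the low-count filter, with edgeR's legacy test and at a common depth. Usp29, the ubiquitin protease gene read from the other side of the start region shown above, fell from 31.4 and 37.3 CPM to 12.7 and 12.5 CPM (log2 fold change -1.45 ± 0.27, edgeR adjusted p = 0.023). Peg3 reads per Usp29 read were 43.4 and 37.3 in controls and 91.0 and 79.4 in Eya1cKO. Exons of Zim3 cover 14.3% of those of Usp29. Zim1, the maternally expressed zinc finger gene of the cluster, was at 84.6 and 88.7 CPM in controls and 93.1 and 89.1 CPM in Eya1cKO, with an interval of its log2 fold change from -0.21 to 0.36.

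The retrotransposon-derived Peg10, which is needed for the placenta, rose from 251 and 259 CPM to 577 and 600 CPM. Its log2 fold change was 1.20 ± 0.07 (edgeR adjusted p = 3.7e-04), or 2.31-fold. Sgce, the epsilon-sarcoglycan gene that starts 99 bases away on the other strand, was at 16.0 and 17.6 CPM in controls and 26.8 and 43.6 CPM in Eya1cKO. The log2 fold change, 1.03 ± 0.30, missed the threshold (edgeR adjusted p = 0.082), and passed with DESeq2, without Eya1cKO 1 and without Eya1cKO 2. In the same cluster, Casd1, a sialic acid acetyltransferase gene, had 83.6 and 73.0 CPM in controls and 75.7 and 72.9 in Eya1cKO. Ppp1r9a, which encodes neurabin, had 131 and 131 CPM against 148 and 155. Asb4, a ubiquitin ligase adaptor gene, had 47.4 and 38.4 CPM against 49.1 and 65.7. None of these 3 maternally expressed neighbours passed, with log2 fold changes of -0.07, 0.21 and 0.40.

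**Figure D4:**
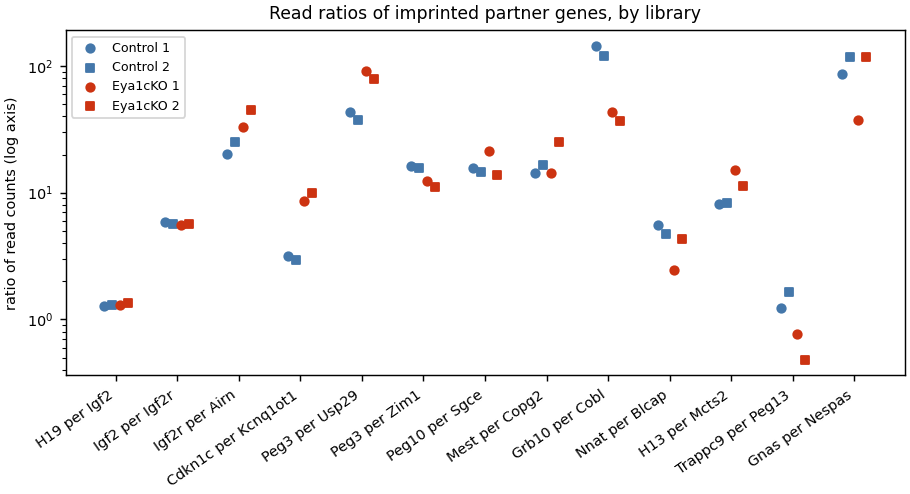
Ratio of read counts (log axis) of 13 pairs of imprinted genes that share a cluster, or a ligand and its receptor, in each library (blue control, red Eya1cKO). H19 per Igf2 stays between 1.28 and 1.35, Cdkn1c per Kcnq1ot1 is 3.17 and 2.93 in controls and 8.55 and 9.93 in Eya1cKO, and Grb10 per Cobl is 144 and 121 in controls and 43.0 and 36.8 in Eya1cKO.

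Grb10 and Mest also fell. Grb10 (chr11:11930508-12038683), an adaptor that restrains insulin and IGF receptor signalling, was at 1650 and 1630 CPM in controls and 1310 and 1350 CPM in Eya1cKO. The log2 fold change was -0.30 ± 0.05 (edgeR adjusted p = 0.014). Its neighbour Cobl, an actin nucleator gene, went the other way, from 11.5 and 13.4 CPM to 30.5 and 36.8 CPM (log2 fold change 1.41 ± 0.27, edgeR adjusted p = 0.022). Mest, a hydrolase-fold gene of embryonic mesoderm, was at 1220 and 1230 CPM in controls and 999 and 1040 CPM in Eya1cKO (log2 fold change -0.26 ± 0.05, edgeR adjusted p = 0.027). Copg2, a coatomer gene whose exons overlap those of Mest on the other strand over 23.1% of the exonic bases of Mest, had 84.6 and 73.8 CPM against 70.2 and 41.2 and did not pass. Klf14, the maternally expressed zinc finger gene next to it, had 128 and 124 reads in controls and 70 and 173 in Eya1cKO.

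Plagl1, the paternally expressed zinc finger gene also called Zac1, rose from 350 and 331 CPM to 469 and 514 CPM (log2 fold change 0.53 ± 0.08, edgeR adjusted p = 0.0099). Nap1l5, a nucleosome assembly protein family gene placed within an intron of Herc3, had 13 and 19 reads in controls and 165 and 80 in Eya1cKO. Its log2 fold change of 3.77 ± 0.79 (edgeR adjusted p = 0.025) was the largest of the 15 that passed and rested on few control reads. The call was lost with edgeR's legacy test. Peg13, a paternal non-coding RNA within Trappc9, was at 42.2 and 31.7 CPM in controls and 75.5 and 78.7 CPM in Eya1cKO (log2 fold change 1.06 ± 0.18, edgeR adjusted p = 0.017). Trappc9, a trafficking complex gene, had 51.7 and 52.7 CPM against 57.8 and 37.9, so that Trappc9 reads per Peg13 read were 1.23 and 1.66 in controls and 0.766 and 0.481 in Eya1cKO.

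At Gnas, which encodes the stimulatory G protein alpha subunit and several imprinted transcripts, the gene as a whole was at 133 and 129 CPM in controls and 176 and 180 CPM in Eya1cKO. The log2 fold change was 0.44 ± 0.09 (edgeR adjusted p = 0.034), and the call was lost without the low-count filter, with the legacy test and at a common depth. Counts per gene do not separate the biallelic from the imprinted transcripts. Nespas, the antisense RNA whose exons share 31.4% of their bases with Gnas, had 54 and 41 reads in controls and 106 and 27 in Eya1cKO and did not pass. On the same chromosome Nnat, the proteolipid gene neuronatin, was at 147 and 158 CPM in controls and 105 and 119 CPM in Eya1cKO (log2 fold change -0.45 ± 0.12, edgeR adjusted p = 0.057), and passed as lower with DESeq2 and with a minimum of 10 reads in every library. Blcap, the gene around it, had 26.5 and 33.4 CPM against 42.8 and 27.6. H13, the signal peptide peptidase gene, had 186 and 161 CPM against 157 and 164. Mcts2, a retrogene inside H13, had 22.9 and 19.2 CPM against 10.5 and 14.5, with a log2 fold change of -0.78 ± 0.32 (edgeR adjusted p = 0.17). Blcap and H13 overlapped between the genotypes, and Mcts2 lay lower in both Eya1cKO libraries without passing the test.

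No gene of the Snrpn cluster, the mouse counterpart of the Prader-Willi and Angelman region, passed in edgeR's test with all libraries, and 1 of the 6 had an unadjusted p under 0.05. The share of all genes at that cut was not counted. With 1 library left out, fitted log2 fold changes ranged from 0.97 to 1.66 for Magel2 and 0.18 to 0.59 for Ndn. Those of Mkrn3 ranged from -3.43 to -1.32 and those of Peg12 from -1.04 to 0.01. For Snrpn they ranged from 0.43 to 0.66, and for Ube3a from -0.23 to 0.16. The gene with the low unadjusted p was Magel2, a ubiquitin ligase partner, at 7.72 and 8.02 CPM in controls and 25.1 and 15.5 CPM in Eya1cKO (log2 fold change 1.41 ± 0.37, edgeR adjusted p = 0.063). It passed with DESeq2 and with a minimum of 10 reads in every library. Ndn, the necdin gene, had 75.8 and 89.1 CPM against 94.5 and 125, and Snrpn, a splicing factor gene, had 6.95 and 8.10 CPM against 11.0 and 11.2. Peg12, a Frat family gene, had 27.2 and 23.9 CPM against 25.9 and 12.5. Mkrn3, a makorin ring finger gene, had 104 and 70 reads in controls and 5 and 17 in Eya1cKO. Ube3a, the maternally expressed ubiquitin ligase gene of Angelman syndrome whose imprint is known from neurons, was at 97.3 and 98.9 CPM in controls and 111 and 84.3 CPM in Eya1cKO, and its log2 fold change of 0.01 had an interval from -0.35 to 0.36.

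Of the remaining single genes, Slc38a4, an amino acid transporter gene, had 120 and 117 CPM in controls and 141 and 134 in Eya1cKO. Impact, a regulator of translation, had 46.9 and 55.5 CPM against 54.2 and 70.7. Inpp5f, a phosphoinositide phosphatase gene, had 65.4 and 70.6 CPM against 61.2 and 56.1, and Zrsr1, a splicing factor retrogene within Commd1, had 15.0 and 11.6 CPM against 15.1 and 11.8. None of these 4 passed, and their log2 fold changes lay between -0.21 and 0.27. Rasgrf1, a Ras exchange factor gene, had 53 and 42 reads in controls and 1 and 0 in Eya1cKO. That is a 52.7-fold lower level with a 95% counting interval from 9.23 to 2.1e+03, although the gene did not pass across libraries (edgeR adjusted p = 0.11).

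The Dlk1-Dio3 locus on chromosome 12 stood apart in its counts. Dlk1, which encodes a Notch-ligand-like membrane protein, and Rtl1, a retrotransposon-derived gene, were listed at 0 in all 4 libraries. Meg3, the maternal long non-coding RNA of the locus, had 1 and 0 reads in controls and 39 and 7 in Eya1cKO, and Rian, the RNA that follows it, had 1 and 2 reads in controls and 22 and 4 in Eya1cKO. The ratio of Eya1cKO to control was 82.9 for Meg3 (95% counting interval 14.2 to 3.35e+03) and 15.6 for Rian (4.79 to 80.7). These intervals pool the libraries of a genotype and leave out the spread between them. Meg3 did not pass the test across libraries (edgeR adjusted p = 0.10), and Rian was not tested.

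Farther along the same chromosome, Mirg, which hosts the miRNA cluster shown above, had 181 and 194 reads in controls and 340 and 409 in Eya1cKO. Its log2 fold change was 1.85 ± 0.41 (edgeR adjusted p = 0.038), a call that was lost without the low-count filter, with the legacy test and at a common depth. Dio3, the thyroid hormone inactivating deiodinase at the far end, had 87 and 82 reads in controls and 0 and 9 in Eya1cKO and did not pass (log2 fold change -3.35 ± 1.26, edgeR adjusted p = 0.13).

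Counts were low over the stretch that holds Dlk1, Meg3, Rtl1 and Rian and ends before Mirg. Between Begain, which had 871, 705, 546 and 987 reads, and B830012L14Rik, the next gene with at least 100 reads in a library, lie 61 counted genes over 627368 bases (chr12:109068218-109695585). They held 2, 2, 61 and 11 reads in total, and 59 of them were listed at 0 in every library. Of the 61, 51 are miRNA, snoRNA or miscellaneous RNA entries, most of them not what libraries of purified mRNA are made to capture, and all 51 were at 0. The other 10 are longer genes, of which 8, Dlk1 and Rtl1 among them, were at 0. Why its longer genes had so few reads was not tested. The zeros of Dlk1 and Rtl1 are therefore given as listed and are not read as absence of expression. The ratios of Meg3 and Rian come from the same stretch and carry the same limit.

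**Figure D5:**
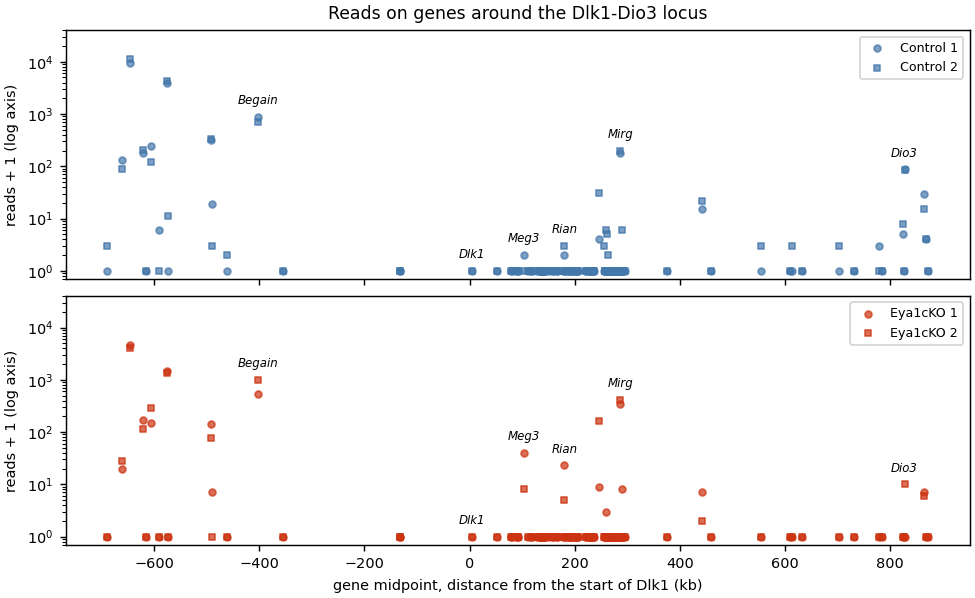
Reads plus 1 (log axis) on each annotated gene against the distance of its midpoint from the start of Dlk1 in kb, for the control libraries (top, blue) and the Eya1cKO libraries (bottom, red). Apart from Meg3 and Rian, the genes from Dlk1 to just before B830012L14Rik lie on the bottom line, which stands for 0 reads, whereas Begain on the left and Mirg and Dio3 on the right have reads in at least 1 library of each genotype.

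Genes that set, read or keep imprints were looked at next, as a list of 26 of which 22 were tested. Of these, 7 fell (against 4.41% of all genes tested) and 1 rose (against 5.15%), with a median log2 fold change of -0.33, and of 0.02 over all genes. Uhrf1 and Dnmt1, which carry DNA methylation through replication, went from 329 and 348 CPM to 212 and 198 CPM and from 511 and 513 CPM to 324 and 359 CPM (log2 fold changes -0.72 and -0.59). Hells, a remodeller needed for DNA methylation, fell with -0.60, Smchd1, a chromatin protein that silences several imprinted clusters, with -0.64, and Ezh2, the H3K27 methyltransferase, with -0.62. Trim28, the corepressor of KRAB zinc finger proteins, went from 1120 and 1100 CPM to 702 and 886 CPM (-0.49), and Ctcf, the insulator protein that binds the control region of Igf2 and H19, from 242 and 226 CPM to 162 and 184 CPM (-0.44). Tet2, which oxidises 5-methylcytosine, rose from 90.7 and 89.1 CPM to 126 and 154 CPM (0.63). The zinc finger genes that protect imprints, Zfp57 and Zfp445, had log2 fold changes of 0.27 and 0.13 with edgeR adjusted p of 0.29 and 0.63. Zfp42 was listed at 0 in all libraries.

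The partners of IGF2 were 8 further genes, all tested, of which 2 rose (against 5.15% of all genes tested) and 4 fell (against 4.41%). Igf1, the related growth factor, rose from 34.1 and 34.8 CPM to 137 and 110 CPM (log2 fold change 1.85 ± 0.16), and Irs1, a receptor substrate, rose by 0.77. The mRNA-binding proteins Igf2bp1, Igf2bp2 and Igf2bp3, which bind Igf2 transcripts among others, had log2 fold changes of -0.81, -0.51 and -0.45, and Irs2 of -0.43. The receptors themselves did not pass: Igf1r was at 313 and 297 CPM in controls and 282 and 304 CPM in Eya1cKO, with a log2 fold change of -0.06 ± 0.08, and Insr had 0.08 ± 0.16.

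A list of 31 further genes with a described imprint, mostly in limited tissues, had 24 tested, of which 6 rose (against 5.15% of all genes tested) and 0 fell (against 4.41%) in edgeR's test, with a median log2 fold change of 0.41. At an unadjusted p under 0.05, 1 of the 24 was lower. The share of all genes lower at that cut was not counted, so this 1 gene cannot be weighed against it. DESeq2 also called 0 lower, with 1294 of all 31192 genes called lower. A minimum of 10 reads in every library called 1 lower, with 1107 of all 14490 genes called lower. Among those that rose, the 4 with the largest change were Th, Kcnk9, Ddc and Dcn. Th, the tyrosine hydroxylase of catecholamine synthesis, had 9 and 14 reads in controls and 1075 and 950 in Eya1cKO. Kcnk9, a potassium channel gene of the Peg13 cluster, had 3 and 14 reads in controls and 234 and 151 in Eya1cKO. Ddc, the decarboxylase that follows Th in that pathway and lies next to Grb10, had 47 and 69 reads against 313 and 220. Dcn, the stromal proteoglycan decorin, had 755 and 985 reads against 2316 and 2052. Th is also in the sympathoadrenal and Dcn in the stromal marker list above. Without Control 1, or without Control 2, 0 genes passed among the further imprinted genes, the imprint regulators and the IGF2 partners.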

How the data were processed

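RNA-seq counts of 2 Control and 2 Eya1cKO libraries were used. Per the labels and the study's methods, mRNA purified from total RNA of sorted cells was made into random-primed strand-specific libraries, read from one end, mapped by the authors to mm10 with HISAT2 and counted on Ensembl genes with HTSeq. The deposited values are whole-number counts per gene, not normalized. The strand setting of the counting is not given in the sources used here. Symbols were matched to 52403 of 52636 gene rows, and gene lengths, positions and overlaps came from GENCODE for GRCm38. Promoter and miRNA sequences came from RefSeq (GRCm38.p6).

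Genes were tested with edgeR 4.0.16 (R 4.3.3), using filterByExpr (minimum count 10), TMM, the quasi-likelihood test and Benjamini-Hochberg adjustment over all 19041 genes tested, with a threshold of 0.05. The model had genotype alone. CPM were computed with TMM-scaled library sizes, SE is the log2 fold change divided by the root of F, and intervals are 95%. For genes with at most 3 reads in a genotype, ratios of summed reads have exact conditional binomial intervals, which cover counting error only, or take 3 reads per library as the floor. The method was tested on simulated data with known changes. Alternatives were DESeq2 1.42.0 size factors and Wald test, library totals, other count filters, robust and legacy quasi-likelihood, the replicate number as a block, each library left out, and, added after seeing the data, thinning all libraries to 17457452 reads.

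The imprinted genes and the other gene lists were chosen with earlier results of these data known. All 52 imprinted genes are accounted for: those past the threshold, with 100 reads in a library or at a locus with 2 or more of them are given with values. Of the other lists, those past the threshold are given, and at most 4 in each direction for the further imprinted genes.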

Additional observations from a re-analysis of the deposited data

How the results depend on the processing

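None of the 15 imprinted genes that passed had a fitted change of the other sign under any alternative run; of those that did not pass, 8 had a fitted change of the other sign under at least 1 alternative. Of the imprinted genes, 15 passed the test, with 9.56% of all genes called. With the share of all genes called in brackets, 18 passed with the DESeq2 Wald test (9.94%), 15 with DESeq2 size factors (9.41%), 14 with library totals (9.33%), 11 without the low-count filter (3.38%), 17 with at least 10 reads in every library (15.5%), 15 with the robust (8.95%) and 11 with the legacy test (5.76%), and 12 with all libraries thinned to the smallest depth (6.69%). The numbers shared by control and Eya1cKO libraries do not pair them by any label, and deviations of same-numbered libraries correlated at 0.01 over genes. With the replicate number as a block (3.26% of all genes called), 6 imprinted genes passed, 5 higher (Cdkn1c, H19, Igf2, Peg10, Plagl1) and 1 lower (Grb10); Cobl, Gnas, Igf2r, Mest, Mirg, Nap1l5, Peg3, Peg13 and Usp29 did not.

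With a library left out, the imprinted genes called ranged from 1 to 27 (1 to 19 higher, 0 to 9 lower). Without Control 1 or Control 2, whose group then varies like the Eya1cKO pair by assumption, Cdkn1c alone passed. Each left-out Eya1cKO library gave 27 calls, since the spread then came from the control pair, whose counts differed less (chi-square per degree of freedom 9.70 against 49.8). The same settings gave 23 to 7925 genes overall (15 to 4443 higher, 7 to 3482 lower), 0 to 17 imprint regulators, 0 to 14 further imprinted genes and 0 to 6 IGF2 partners.

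Over all genes, 1820 were called; without the low-count filter 1055 (548 higher, 507 lower), with the DESeq2 Wald test 3102 (1808 and 1294), with the legacy test 1096 (581 and 515), with the block 621 (358 and 263) and at a common depth 1182 (610 higher). Imprint regulators numbered 8 in the main test, 4 without the filter, 5 with the legacy test, 2 with the block and 5 at a common depth; IGF2 partners 6, and then 3, 3, 2 and 3. The cause of these shifts was not tested. Leaving the low-count genes in the test moved the median log2 fold change of all genes from 0.02 to -0.21, with 31192 genes in place of 19041.

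Depth limits the low genes: 3 reads equalled 0.0857 and 0.0800 CPM in controls and 0.133 and 0.171 CPM in Eya1cKO, so that Ascl2, Dio3, Dlk1, Rtl1, Rian, Slc22a2, Phlda2, Meg3 and Rasgrf1 were measured near the floor in at least 1 library. With 2 libraries a genotype, differences of less than the spread between them were not detectable.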
